A study of Bos taurus with 32 samples.

Results

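The comparison set 4 calves that weighed 38 kg or more at birth against 4 calves that weighed 36 kg or less, in the hypothalamus, pituitary, testicle and adrenal of each calf. It used all 32 libraries of the series, 16 from heavier and 16 from lighter calves. RNA was measured by sequencing as counts per gene. All 8 calves were male Holsteins from embryos carried by synchronized recipients, and tissues were collected at 98 to 104 days of age in 7 of them and at 144 days in calf 3213. The heavier side held IVP calves 5841 and 5833, from embryos made in vitro, and MOET calves 3213 and 5932, from embryos conceived in the superovulated donor after artificial insemination. The lighter side held IVP calves 3208 and 3209 and MOET calves 3217 and 3218. Each side therefore held 2 calves of each embryo origin, and origin was a covariate in each fit.

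The hypothalamus and the pituitary control reproduction through gonadotropin-releasing hormone and the gonadotropins, which act on the testicle. The same 2 organs drive the adrenal cortex through corticotropin and influence body growth through growth hormone. Cattle born from embryos cultured in vitro are known for a wider spread of birth weights than cattle conceived in vivo. In these calves the split by weight was balanced over origin in the number of calves. On both sides, however, the IVP calves were heavier at birth than the MOET calves.

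Birth weights were 38 (3213), 39 (5932), 40 (5841) and 41 kg (5833) on the heavier side. On the lighter side they were 33 (3218), 35 (3217), 36 (3208) and 36 kg (3209). The sides were 39.5 ± 1.29 and 35.0 ± 1.41 kg (SD, n = 4), a difference of 4.5 kg that the choice of sides fixed. Age at collection was 144 days in 3213 and 98, 103 and 104 days in the other heavier calves, against 102, 102, 103 and 103 days in the lighter ones. The mean age was 112 ± 21.3 against 102.5 ± 0.577 days (exact permutation p = 0.657, adjusted p = 0.743 over 3 measures, two-sided, with 0.0857 the smallest p possible for these ages). Without calf 3213 the difference turned from 9.75 to -0.833 days.

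Weight at collection overlapped between the sides. Calves weighed 134 ± 26.3 kg on the heavier and 125.5 ± 12.8 kg on the lighter side (SD, n = 4, exact permutation p = 0.743, adjusted p = 0.743). Calf 3213, the oldest, weighed 172 kg, and without it the difference turned from 8.5 to -4.17 kg. Daily gain was 0.834 ± 0.110 against 0.883 ± 0.111 kg (exact permutation p = 0.571, adjusted p = 0.743, n = 4). The smallest gains, 0.731, 0.735 and 0.748 kg a day, belonged to 5932, 3218 and 5833, which came from both sides.

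**Figure D1:**
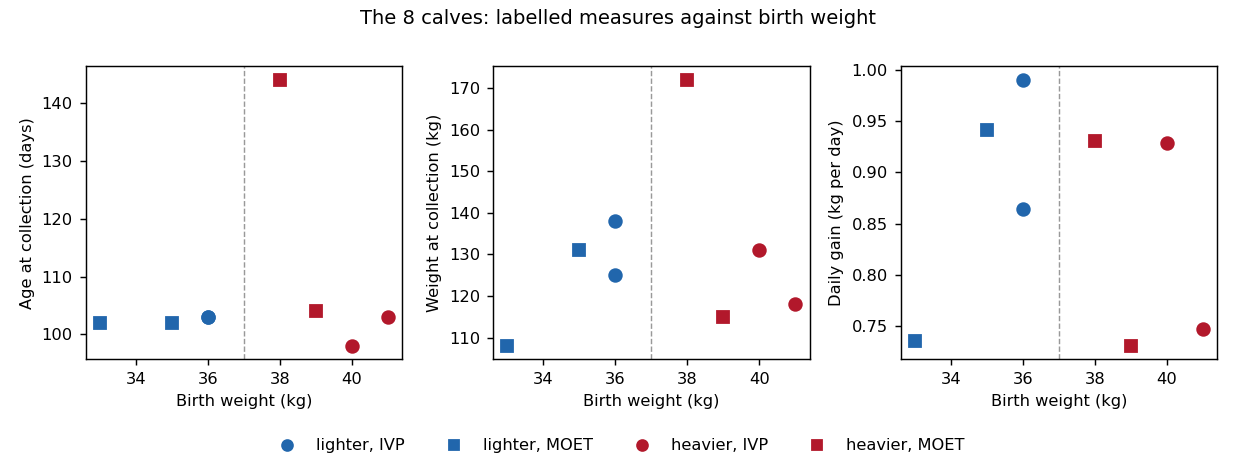
Age at collection, weight at collection and daily gain (y axes) against birth weight in kg (x axes) for the 8 calves, with circles for IVP, squares for MOET and a dashed line between the sides. Calf 3213 stands at 144 days and 172 kg, and daily gain overlaps between the sides.

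The sides also differed in animal number. All 4 lighter calves carried numbers of the series 32, and 3 of the 4 heavier calves carried numbers beginning with 58 or 59. Calf 3213 was the only heavier calf of the series 32, and it was also the oldest calf. The labels do not say what the numbers stand for. Birth weight and number series can be told apart only through 3213 against the MOET calves 3217 and 3218. Library totals ran from 17357283 to 23380330 counts and overlapped between the sides in each tissue.

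No gene in any tissue passed an adjusted p of 0.05 in edgeR's quasi-likelihood test of heavier over lighter calves (percent called 0% in each tissue). In the hypothalamus 0 of 16368 genes passed and 1631 (9.96%) had an unadjusted p under 0.05, of which 630 were higher and 1001 lower in heavier calves. In the pituitary 0 of 16029 passed and 780 (4.87%) had an unadjusted p under 0.05, 409 higher and 371 lower. In the testicle 0 of 16627 passed and 111 (0.668%) had such a p, 65 higher and 46 lower. In the adrenal 0 of 15735 passed and 53 (0.337%) had such a p, 24 higher and 29 lower. In this test the hypothalamus held the largest share of small p-values of the 4 tissues and the adrenal the smallest. Where no gene differs, a share of about 0.05 is expected on average. Genes of the same 8 calves vary together, so a single share can lie far from it and decides nothing here. In edgeR only the hypothalamus stood above 0.05. With limma voom with quality weights the hypothalamus (7.99%), testicle (13.2%) and adrenal (5.47%) did.

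Other tools gave few calls. DESeq2 called 6 hypothalamic genes, 1 pituitary gene and 0 in the other tissues, with, in the order of the paragraph above, 1979, 559, 107 and 61 genes at an unadjusted p under 0.05. Limma voom with quality weights called 0 in each tissue, with 1307, 486, 2194 and 860 such genes, so that the testicle held the most and the pituitary the fewest. With birth weight entered in kg as a number, edgeR called 0 genes in each tissue, and 3413, 1133, 191 and 47 genes had an unadjusted p under 0.05.

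Embryo origin, read from the same fits, gave other counts in the same calves. IVP over MOET called 6 hypothalamic (0.0367%), 2129 pituitary (13.3%), 1 testicular (0.00601%) and 4700 adrenal genes (29.9%). The 8 calves thus gave 2129 and 4700 calls by origin, and 0 by birth weight, in the pituitary and adrenal. Whether the number of calls differed between the 2 splits was not tested.

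The estimated differences were small. The median size of the log2 fold change between heavier and lighter calves was 0.20 (hypothalamus), 0.07 (pituitary), 0.09 (testicle) and 0.06 (adrenal). The corresponding medians for origin were 0.27, 0.16, 0.15 and 0.32. The median standard error of the difference by birth weight was 0.17, 0.10, 0.21 and 0.15 in the same order, so a typical estimate was near or under its own error. Estimates above 2-fold numbered 224, 168, 34 and 155. For 77.7% of hypothalamic, 92.6% of pituitary, 82.6% of testicular and 89.1% of adrenal genes, the 95% confidence interval lay wholly within a 2-fold difference in either direction.

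Birth weight side held 15.4% of the variance of log2 expression around the hypothalamic mean, 12.1% of that in pituitaries, 5.01% in testicles and 6.26% in adrenals. Origin held 34.5%, 38.3%, 15.7% and 44.0%, and differences between calves of the same side and origin held 45.9%, 37.4%, 51.6% and 43.7%. A term with 1 of the 7 degrees of freedom would hold 14.3% if the variance were spread evenly over them. The side term was above that share in the hypothalamus and below it in the other 3 tissues.

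**Figure D2:**
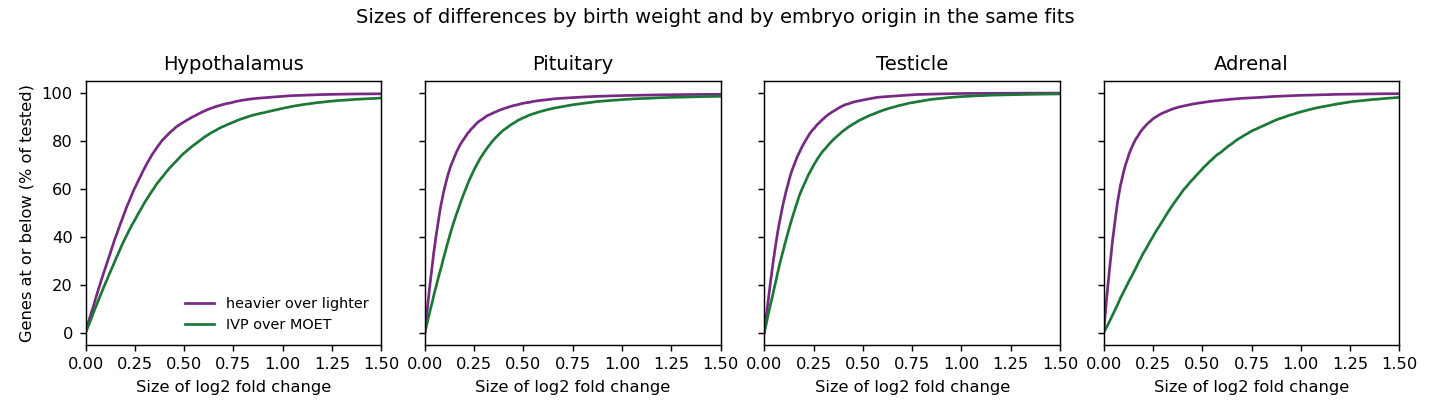
Share of tested genes (y axis, percent) whose log2 fold change is at or below a given size (x axis), for heavier over lighter calves and for IVP over MOET calves in the same edgeR fits, by tissue. The origin curve lies to the right in each tissue, with medians of 0.32 against 0.06 in the adrenal and 0.27 against 0.20 in the hypothalamus.

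In the hypothalamus the 5 genes with the smallest p in edgeR were all higher in heavier calves. The 6 genes that DESeq2 called were all higher in heavier calves, by 0.85 to 1.69 on the log2 scale, and edgeR's adjusted p was 0.439 for each. For 4 of them the highest level of the 4 tissues was in the hypothalamus and for the other two in the pituitary. The values of 4 of the 6 did not overlap between the sides. The gene IDs could not be paired with symbols, so most genes are given here by their rank.

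The higher gene at rank 1 in the hypothalamus stood at 7.77 (3213), 18.1 (5932), 54.5 (5841) and 41.3 CPM (5833) in heavier calves, and at 4.32 (3218), 4.66 (3217), 15.1 (3208) and 17.1 CPM (3209) in lighter ones. CPM stands for TMM-scaled counts relative to the library total. The sides overlapped as a whole, but within IVP and within MOET the 2 heavier calves lay above the 2 lighter ones. The log2 fold change was 1.55 (SE 0.25, unadjusted p = 0.000251), 1.59 in IVP and 1.53 in MOET calves alone, and 1.29 to 1.74 when each calf was left out (DESeq2 adjusted p = 3.65e-05).

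The gene at rank 3 had its highest level in the hypothalamus, at least 8-fold above the other tissues. It stood at 19.1, 49.5, 41.7 and 22.5 CPM in heavier calves (3213, 5932, 5841 and 5833) and at 9.68, 8.88, 11.5 and 11.3 CPM in lighter ones (3218, 3217, 3208 and 3209). The sides did not overlap, and the heavier calves varied more, with 33.2 ± 14.8 against 10.4 ± 1.28 CPM (SD, n = 4). The log2 fold change was 1.68 (SE 0.32, unadjusted p = 0.000731, DESeq2 adjusted p = 0.000657).

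The genes at ranks 2 and 4 did not overlap either. The gene at rank 2 stood at 24.9 to 40.9 CPM in heavier and 16.4 to 20.3 CPM in lighter calves (log2 fold change 0.85, SE 0.16). The gene at rank 4 stood at 8.80 to 17.4 against 4.55 to 6.17 CPM (log2 fold change 1.13, SE 0.21). In all 3 of these genes calf 3213 was the lowest heavier calf and 5932 the highest.

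Among hypothalamic genes lower in heavier calves, the gene at rank 3 stood at 49.8 to 65.2 CPM against 73.9 to 86.4 CPM (log2 fold change -0.43, SE 0.10, unadjusted p = 0.00202). The gene at rank 5 stood at 0.161 to 0.518 against 0.612 to 1.75 CPM (log2 fold change -2.02, SE 0.45, unadjusted p = 0.00206), on 4 to 11 counts a library in heavier calves. Neither pair of ranges overlapped. For the gene at rank 5, only the heavier calf with 11 counts reached the minimum count in the filter on low counts. All lighter calves reached it, with 13 to 40 counts, so the gene entered the test mainly through that side. Its p and log2 fold change are therefore no independent support for a difference. The gene at rank 1 overlapped, with 35.2 to 77.2 against 52.1 to 97.7 CPM.

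The hypothalamic count of small p-values, 1631 with all calves, varied when single calves were left out. It was 355 without 5932, 628 without 3218, 674 without 3209, 887 without 5841 and 1033 without 5833. It was 1845 without 3213, 1976 without 3217 and 4901 without 3208. Each of these fits also had fewer residual degrees of freedom. The adjusted count was 0 in each case. With number series as a further covariate 10 genes had an unadjusted p under 0.05, and the 1631 genes, chosen by their p without it, had a median size of 0.17 against 0.39 without it.

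In the pituitary the higher genes at ranks 2 to 5 had log2 fold changes of 0.35 to 0.80, and rank 1, ENSBTAG00000024272, is described below with the named genes. The higher gene at rank 3 stood at 36.1, 43.7, 43.9 and 39.8 CPM in heavier calves (3213, 5932, 5841 and 5833) and at 30.9 to 32.8 CPM in lighter ones, without overlap (log2 fold change 0.35, SE 0.07, unadjusted p = 0.000905). The gene at rank 4 stood at 17.6 to 28.7 against 11.5 to 15.7 CPM (log2 fold change 0.58, SE 0.12). Among lower genes that at rank 3 stood at 19.1 to 26.5 against 26.6 to 32.7 CPM, so that 3213 and 3209 nearly met (log2 fold change -0.42, SE 0.10).

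In the testicle the higher gene at rank 1 stood at 4.17 (3213), 7.41 (5932), 4.84 (5841) and 5.53 CPM (5833) in heavier calves and at 2.36 to 3.25 CPM in lighter ones. Its log2 fold change was 0.90 (SE 0.22, unadjusted p = 0.00347) with edgeR's adjusted p at 1. The higher gene at rank 5, with 84.9 to 130 CPM against 74.1 to 93.2 CPM, overlapped. The lower gene at rank 5 stood at 60.1 to 73.2 against 73.4 to 92.5 CPM, with the nearest calves, 3213 and 3217, almost equal (log2 fold change -0.37, SE 0.12).

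In the adrenal the leading gene that did not overlap among the first 5 higher ones was at rank 4, with 292 to 364 CPM against 245 to 280 CPM (log2 fold change 0.27, SE 0.09, unadjusted p = 0.0189). The higher gene at rank 2 separated the sides only among MOET calves. It stood at 17.5 and 43.6 CPM in heavier against 9.79 and 6.82 CPM in lighter MOET calves, and at 4.57 and 2.04 CPM in heavier against 1.49 and 2.62 CPM in lighter IVP calves, where the values overlapped (log2 fold change 1.39, SE 0.44). The smallest adjusted p of the tissue was 1 in edgeR after rounding.

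Genes whose 4 heavier and 4 lighter values did not overlap were counted in each tissue. In the hypothalamus 112 genes were higher (0.684%) and 166 lower (1.01%) in all heavier calves. The pituitary held 139 higher (0.867%) and 110 lower ones (0.686%), the testicle 36 (0.217%) and 43 (0.259%), and the adrenal 27 (0.172%) and 24 (0.153%). With 70 arrangements of 8 calves into 4 and 4, a share of 0.0286 would separate in either direction if the calves were interchangeable. In each tissue the shares of both directions together were smaller than that. The calves were not interchangeable, however, because each side held IVP and MOET calves in equal number. A gene that differs strongly by origin can hardly separate such sides, whatever birth weight does. The smaller shares therefore decide nothing about birth weight. The genes without overlap had a modest median size. It was a log2 fold change of 0.44 for the 112 and 0.24 for the 166 hypothalamic genes. For the 139 and 110 pituitary genes it was 0.36 and 0.17.

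In the hypothalamus, pituitary and testicle, calf 3213 bordered the lighter side most often. It was the heavier calf nearest to the lighter side for 86 of the 112 and 128 of the 166 hypothalamic genes, for 84 of the 139 and 64 of the 110 pituitary genes, and for 21 of the 36 and 30 of the 43 testicular genes. In the adrenal 3213 was nearest for 15 and 5833 for 12 of the 27 higher genes, and 5833 for 11 and 3213 for 7 of the 24 lower ones. Calf 5932 was nearest for 0 in each tissue. By birth weight 3213, at 38 kg, was also the lightest heavier calf, so age, number series and birth weight cannot be told apart in this order. No gene with at least 10 counts in each library of 1 side stayed at or under the floor of 3 counts in each library of the other, in any tissue.

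The difference by birth weight was next read within each embryo origin, with 2 heavier against 2 lighter calves. Interaction terms passed the adjusted threshold for 0 of 16726 hypothalamic, 0 of 16341 pituitary, 0 of 16942 testicular and 0 of 16106 adrenal genes in edgeR (0% each). At an unadjusted p under 0.05 there were 75, 1116, 882 and 59 such genes, and DESeq2 called 1, 11, 1 and 0.

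The tissues differed in how the 2 origins lined up. Over 16368 hypothalamic genes, IVP and MOET differences had the same sign for 77.0%, with a Spearman's rho of 0.65 across genes. In the testicle the sign was the same for 23.1% of 16627 genes and rho was -0.70. The pituitary and adrenal gave rho of -0.08 and -0.15. The points of each correlation share 8 libraries and are not independent, so no p is given.

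Both the hypothalamic and the testicular value rested on calf 3209, a lighter IVP calf. Without it rho was 0.03 in the hypothalamus and 0.33 in the testicle. Leaving out any other calf kept rho between 0.43 and 0.70 in the hypothalamus and between -0.81 and -0.55 in the testicle. The interaction held 27.7% of the variance in the testicle, against 4.16% in the hypothalamus, 12.1% in the pituitary and 6.06% in the adrenal. Without lighter calf 3208, which leaves 3209 as the only lighter IVP calf, the interaction passed for 6563 testicular genes. With any other calf left out, that count was 0.

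**Figure D3:**
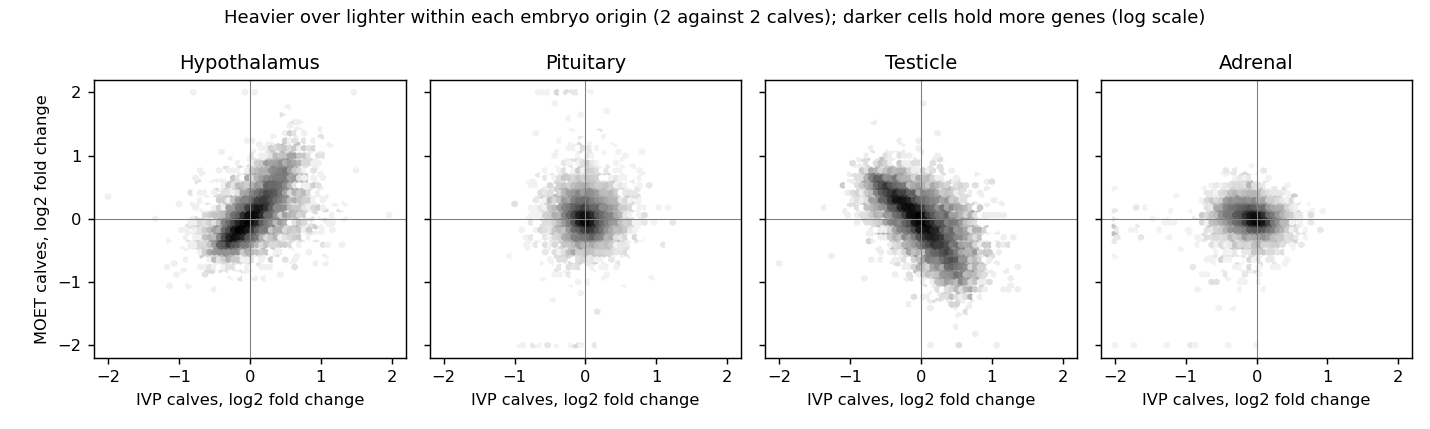
For each tissue, the log2 fold change of heavier over lighter calves in MOET (y axis) against that in IVP calves (x axis) across tested genes, each from 2 against 2 calves in edgeR and drawn at the border when beyond 2. The cloud runs upward in the hypothalamus and downward in the testicle, and it has little slope in the pituitary and adrenal.

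A score for variation shared by the tissues was compared between the sides. It was the first principal component of what origin and side left over, with gene weights taken from the other 3 tissues. In the testicle calf 3209 scored 0.59 and calf 5932 scored 0.44, and the other 6 calves lay between -0.29 and 0.03. The scores of heavier and lighter calves overlapped in each tissue (exact permutation p = 0.286 for the hypothalamus and up to 0.971 for the others, adjusted p = 0.971 for each, two-sided, n = 4). With this score as a covariate edgeR called 0 genes in each tissue, with 839, 1075, 953 and 316 at an unadjusted p under 0.05.

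Tissue-enriched genes served to read organ-specific programs without symbols. They were chosen by the labelled tissue in these same libraries, so they cannot check the labels. They were genes with at least 8-fold higher mean CPM in 1 tissue than in each of the others and at least 10 CPM there. There were 356 for the hypothalamus, 113 for the pituitary, 141 for the testicle and 56 for the adrenal. Their members cannot be named, so known cell type markers could not be looked up. In bulk tissue a lower share of cells of a type and less RNA per cell cannot be told apart.

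In the hypothalamus 111 of the organ's own 356 enriched genes had higher levels in heavier calves, with a median log2 fold change of -0.15, while over all tested genes 49.6% were higher and the median was -0.00. An unadjusted p under 0.05 was reached by 5 higher and 62 lower members, and 0 passed the adjusted threshold. Of all 16368 tested genes 630 higher and 1001 lower ones (9.96% together) reached such a p. The list took 9.05% (3213), 8.16% (5932), 7.98% (5841) and 7.98% (5833) of the counts in heavier calves. It took 9.06% (3218), 10.3% (3217), 8.35% (3208) and 8.68% (3209) in lighter ones. Among heavier calves only 3213 fell within the range of the lighter calves. The median stayed between -0.17 and -0.12 when each calf was left out.

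Pituitary-enriched genes in the hypothalamus went the other way. Of 113 members 98 passed the filter on low counts, 88 of these were higher in heavier calves, and the median was 0.62. Of the 98 members, 12 higher and 0 lower had an unadjusted p under 0.05, against 9.96% of all tested hypothalamic genes in both directions together. The adjusted threshold was passed by 0 members. Their share of the hypothalamic counts was 0.0748% (3213), 0.181% (5932), 0.0676% (5841) and 0.467% (5833) in heavier calves, and 0.0600% (3218), 0.0432% (3217), 0.0762% (3208) and 0.177% (3209) in lighter ones. The sides overlapped, and without 5833 the median was 0.16. The part of these genes in the leading hypothalamic differences was not tested. The higher hypothalamic genes at ranks 1 and 2 had their highest level of the 4 tissues in the pituitary. Rank 1 stood at 7.77 (3213), 18.1 (5932), 54.5 (5841) and 41.3 CPM (5833) in heavier calves. It stood at 4.32 (3218), 4.66 (3217), 15.1 (3208) and 17.1 CPM (3209) in lighter ones. How its level follows the pituitary-enriched share was not tested.

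In the pituitary the organ's own 113 enriched genes had a median of -0.02, with 53 higher in heavier calves, where all tested genes had a median of -0.00 and 49.1% higher. Their share of the pituitary counts was 31.7% (3213), 24.9% (5932), 24.1% (5841) and 32.5% (5833) in heavier calves, and 38.2% (3218), 33.6% (3217), 31.6% (3208) and 29.4% (3209) in lighter ones. Calves 5932 and 5841 lay below the lighter range and the other 2 heavier calves within it. Of the 250 hypothalamus-enriched genes that passed the filter in the pituitary, 172 were higher in heavier calves (median 0.13), with 19 higher and 5 lower at an unadjusted p under 0.05. The median was 0.07 without 5932. Their share was 0.188% to 0.269% against 0.177% to 0.214%, with 5932 and 5841 the highest. Of the 76 testicle-enriched genes that passed the filter there, 57 were also higher (median 0.09, and 0.05 without 5841), with 6 higher and 0 lower at such a p. Of all 16029 tested pituitary genes 409 higher and 371 lower ones (4.87% together) had such a p.

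In the testicle 59 of 141 testicle-enriched genes were higher (median -0.06, against -0.03 and 41.3% higher over all tested genes). Their share was 5.46% (3213), 6.50% (5932), 5.53% (5841) and 5.52% (5833) in heavier and 5.26% (3218), 4.73% (3217), 5.60% (3208) and 7.03% (3209) in lighter calves, so that the sides overlapped. In the adrenal 20 of 56 adrenal-enriched genes were higher (median -0.09, against -0.02 and 42.4% over all tested genes). Their share was 0.864% (3213), 1.29% (5932), 1.22% (5841) and 0.657% (5833) in heavier and 1.16% (3218), 1.10% (3217), 1.05% (3208) and 1.98% (3209) in lighter calves. The mean log2 level of the adrenal list was 4.43 in 5833, below the 5.71 to 5.97 of the other 7 calves. Of the testicle-enriched genes 1 higher and 0 lower had an unadjusted p under 0.05, and of the adrenal-enriched genes also 1 and 0. Over all tested genes 111 of 16627 testicular (0.668%) and 53 of 15735 adrenal ones (0.337%) had such a p.

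**Figure D4:**
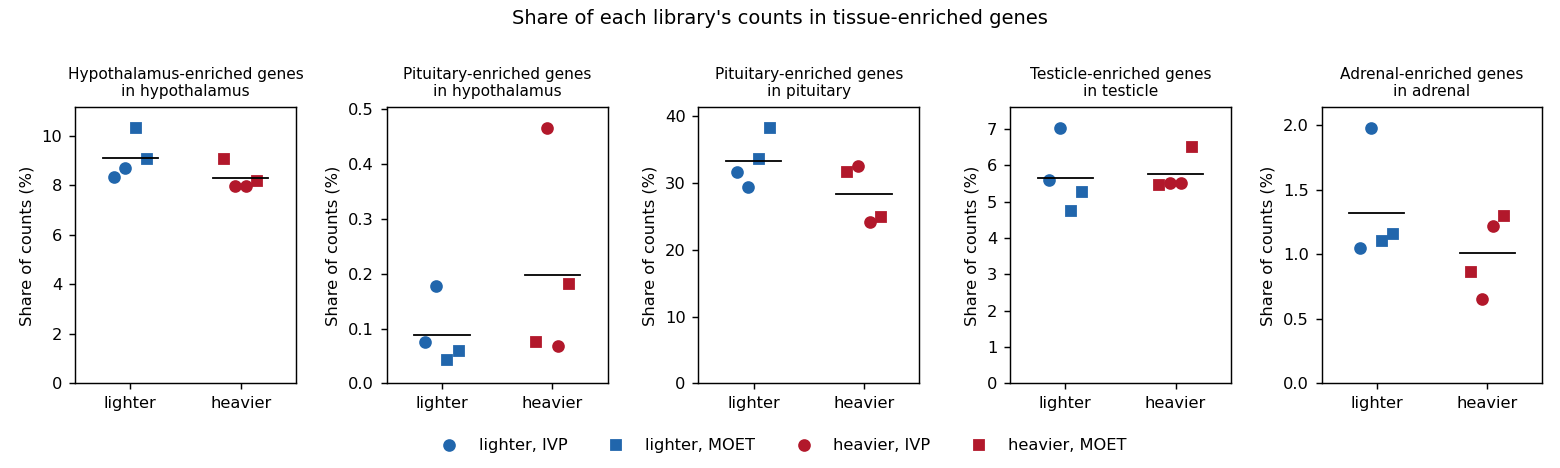
Share of each library's counts (y axis, percent) taken by tissue-enriched genes in lighter and heavier calves, with circles for IVP, squares for MOET and a line at each side's mean. Calf 5833 stands apart for pituitary-enriched genes in the hypothalamus at 0.467%, and the sides overlap in each panel.

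Across tissues the differences by birth weight shared little. Over 14278 genes tested in all 4 tissues, rho between the log2 fold changes was 0.14 for hypothalamus and pituitary, -0.18 for hypothalamus and testicle, 0.07 for hypothalamus and adrenal, 0.14 for pituitary and testicle, 0.11 for pituitary and adrenal, and 0.12 for testicle and adrenal. These values are across genes, from the same 8 calves, and carry no p. The mean over a calf's 4 tissues called 0 of 18242 genes with limma (0%, lowest adjusted p = 0.994), with 334 at an unadjusted p under 0.05, 189 higher and 145 lower. Origin called 7 genes in that fit (0.0384%). A difference by birth weight that varied between tissues was called for 0 of 18463 genes in edgeR (0%, lowest adjusted p = 0.752), with 361 at an unadjusted p under 0.05. Voom with the calf as a block called 0 genes for the mean and 0 for the variation between tissues, with 392 and 516 at an unadjusted p under 0.05.

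Of the 14278 genes, 2 higher and 3 lower ones did not overlap between the sides in 2 or more tissues, and 1 did so in 3. Whether these counts exceed coincidence was not tested. The gene without overlap in 3 tissues was ENSBTAG00000049030, which also had the smallest p of the higher genes in the mean over tissues. In the hypothalamus it stood at 9.89 (3213), 16.7 (5932), 13.6 (5841) and 12.6 CPM (5833) in heavier calves, and at 5.76 (3218), 8.69 (3217), 9.37 (3208) and 6.82 CPM (3209) in lighter ones. Its levels were 5.07 to 7.22 against 3.81 to 4.75 CPM in the pituitary and 2.33 to 3.97 against 1.67 to 2.08 CPM in the testicle. In the adrenal they overlapped, at 2.10 to 3.75 against 1.87 to 3.15 CPM.

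Calf 5932 had the highest level of ENSBTAG00000049030 in each of the 4 tissues. The log2 fold change was 0.79 (SE 0.22) in hypothalami, 0.43 (SE 0.13) in pituitaries, 0.75 (SE 0.21) in testicles and 0.27 (SE 0.19) in adrenals, with unadjusted p of 0.00694, 0.00830, 0.00757 and 0.188 in edgeR. For the mean over tissues it was 0.55 (SE 0.13, unadjusted p = 0.00270, limma's adjusted p = 0.994), and 0.43 without calf 5932. With number series as a further covariate it was 0.34, 0.20, 0.29 and 0.13 in the 4 tissues. The difference thus passed no adjusted threshold and was smaller within the number series in each tissue.

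ENSBTAG00000024272 had the smallest p of all tissue fits, in the pituitary. It was read at 4 (3213), 25 (5932), 119 (5841) and 84 counts (5833) in heavier calves, and at 1 (3218), 0 (3217), 0 (3208) and 0 counts (3209) in lighter ones. Only heavier pituitaries reached the minimum count of 10 in the filter on low counts, so the gene entered the test through that side. Its p and ratio are therefore no independent support for a difference. The sides did not overlap, but 3213 lay close to the lighter calves, at 0.200 CPM where 3 counts stand for 0.173 CPM in the smallest library. The 232 counts on the heavier side against 1 on the lighter gave a ratio of 247 after scaling by library totals (exact 95% interval 43.8 to 9785, which covers counting error only). The fitted log2 fold change of 7.18 (SE 0.86, unadjusted p = 1.79e-05) had an adjusted p of 0.286 in edgeR and 2.01e-06 in DESeq2.

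In the other tissues ENSBTAG00000024272 was again highest in 3 of the 4 heavier calves. Calves 5833, 5841 and 5932 had 161, 51 and 19 counts in the hypothalamus, 234, 203 and 19 in the testicle, and 13, 33 and 17 in the adrenal. Calf 3213 had 3, 6 and 1 counts there. Lighter calves had 0 to 5, 0 to 9 and 0 to 10 counts in these tissues. The 3 calves with numbers beginning with 58 or 59 thus stood at 0.718 CPM or more in each tissue. The other 5, among them 3213, a heavier calf numbered like the lighter ones, stood at 0.533 CPM or less. Calf 3213 was also the oldest calf and the lightest heavier calf at birth. Number series, age and birth weight therefore cannot be told apart in this order. Without 3213 the pituitary log2 fold change was 7.32 with an adjusted p of 0.0337 in edgeR, with age as a covariate 7.21 and 0.0274, and with number series 4.76 and 1. In the adrenal the log2 fold change was 2.41 (SE 0.96), and -0.67 with number series.

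**Figure D5:**
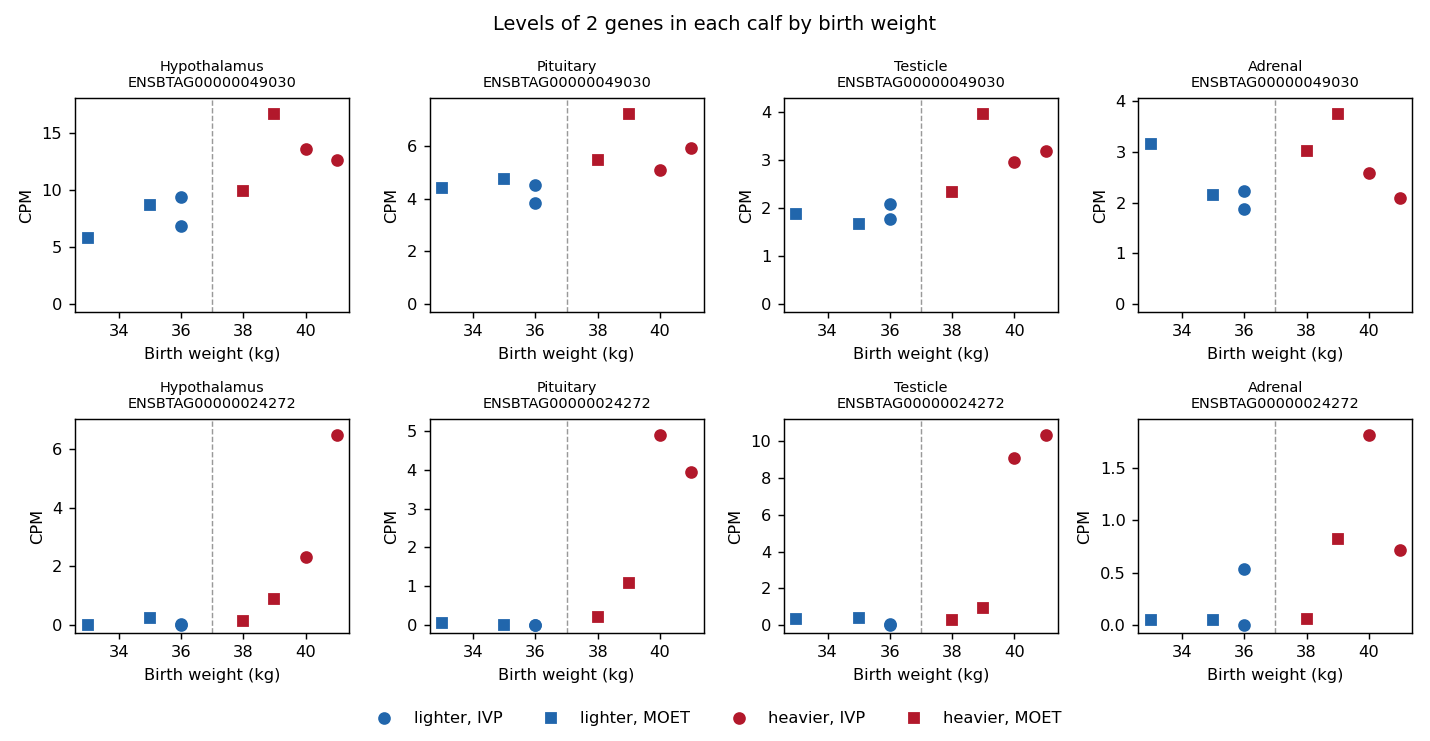
CPM (y axes) of ENSBTAG00000049030 (upper row) and ENSBTAG00000024272 (lower row) against birth weight in kg (x axes) in the 4 tissues, 1 point per calf with circles for IVP and squares for MOET. The upper gene separates the sides in 3 tissues, and the lower one stays near 0 in calf 3213 at 38 kg.

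The 2 genes named as lower were weaker cases. ENSBTAG00000007115, the lower gene with the smallest p in a tissue fit, stood in the pituitary at 14.7 (3213), 12.1 (5932), 13.4 (5841) and 12.3 CPM (5833) in heavier calves and at 17.0 (3218), 16.3 (3217), 19.96 (3208) and 19.9 CPM (3209) in lighter ones. The sides did not overlap, and the log2 fold change was -0.48 (SE 0.09, unadjusted p = 0.000711, edgeR's adjusted p = 0.873). With number series as a covariate it was -0.21 (adjusted p = 1). In the hypothalamus, testicle and adrenal its log2 fold changes were -0.10, -0.15 and 0.02 (SE 0.09, 0.11 and 0.09), with overlapping values.

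ENSBTAG00000012887, the lower gene with the smallest p in the mean over tissues, had a log2 fold change of -0.80 there (SE 0.17, unadjusted p = 0.00128, limma's adjusted p = 0.994) at very low counts. In the pituitary it was read at 4 counts in each heavier calf and at 8, 8, 28 and 14 counts in 3218, 3217, 3208 and 3209. In the testicle the heavier side had 3 counts in all and the lighter side 44, a ratio of heavier to lighter of 0.0654 (exact 95% interval 0.0130 to 0.204, counting error only). Of the 44 counts 35 came from calf 3209. Among the tissue fits the gene passed the filter on low counts only in the adrenal, where the log2 fold change was -0.19 (SE 0.38), and 0.24 in IVP calves alone.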

How the data were processed

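RNA of 4 tissues from 8 calves was measured in 32 libraries. The authors deposited 1 table of unnormalized counts for 27607 Ensembl IDs. Per the labels' protocols, libraries were poly(A)-selected and not stranded, sequenced as paired 100-base reads with low-quality reads removed by SOAPnuke. STAR 2.7, HTSeq and the bosTau9 build are named per the submitters' processing notes. With HTSeq's settings not given in the sources used here, reads of overlapping or near-identical genes cannot be told apart. Totals of 17357283 to 23380330 counts and 4 calves per side set the precision.

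Calves were placed on a side by labelled birth weight. In each tissue, edgeR 4.0.16 (filterByExpr with minimum count 10 and total 15, TMM, robust quasi-likelihood test, R 4.3.3) was fitted on side and embryo origin, with Benjamini-Hochberg adjustment at 0.05. Standard errors are the log2 fold change over the root of F. The origin by side term and the tissue by side terms were tested in edgeR. Calf means of log2 CPM (prior count 2) were tested with limma 3.58.1. Values within origin were differences of mean log2 CPM for correlations. Libraries of a calf came from 1 animal. Its deviations correlated across tissues at -0.05 to 0.41 over the 8 calves. No pair of libraries of 1 group agreed within sampling noise. The edgeR test of the sides in each tissue, the test of calf means and the test between tissues were also run on simulated counts.

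Alternatives were DESeq2 1.42.0, its size factors, voom with quality weights, no filter, 1 fit of all libraries, other covariates, birth weight as a number, each origin alone, the calf as a replicate block, and leaving out 1 calf at a time. The comparison, lists and tests were chosen with earlier results of these data known. Of the IDs 0 matched the reference table used here, so lists of named genes and markers were not used. The naming rule then took, per direction, the gene with the smallest p in the mean over tissues and in the tissue fits. Other genes are given by rank among the 5 smallest p per direction. Figures were drawn with Python 3.11.15 and matplotlib 3.10.9.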

Additional observations from a re-analysis of the deposited data

Results flagged for a closer look

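In 69 groups of 4 calves, 7 held 1 calf whose gap to the others passed Dixon's 95% critical value, where chance gives about 1 in 20 groups. Calf 3213 was the oldest heavier calf, at 144 days against 98 to 104 days. The same calf had the highest share of hypothalamus-enriched genes among heavier hypothalami, at 9.05% of counts against 7.98% to 8.16%. Calf 5932 stood apart among heavier testicles in the share of testicle-enriched genes, at 6.50% against 5.46% to 5.53%, and in ENSBTAG00000007115, at 64.3 CPM against 69.8 to 70.7 CPM. Calf 3209 stood apart among lighter calves in the share of adrenal-enriched genes in the adrenal, at 1.98% against 1.05% to 1.16%, and in ENSBTAG00000012887 in the testicle, at 1.96 CPM against 0.0917 to 0.225 CPM. Calf 3208 had 0.533 CPM of ENSBTAG00000024272 in the adrenal, where the other lighter calves had 0 to 0.0525 CPM.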

How the results depend on the processing

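The count of genes called between heavier and lighter calves stayed at 0 in the testicle and in the mean over tissues under all alternatives run. It became 6 with DESeq2 and 1 with all 32 libraries in 1 fit in the hypothalamus, and 1 with all 32 libraries in the adrenal. In the pituitary it was 1 with DESeq2, 1 with age as a covariate, 1 in IVP calves alone, and 0 to 1 when each calf was left out, with the 1 reached without 3213. With DESeq2, with age and without 3213 the called gene was ENSBTAG00000024272, which entered the test through the heavier side. In IVP calves alone it was another gene. The variation between tissues called 0 to 1 genes when each calf was left out, with the 1 reached without 3209 and without 5841. The origin by side term called 1 (hypothalamus), 11 (pituitary) and 1 (testicle) with DESeq2. With each calf left out it called 0 to 1 in the pituitary (1 without 3213 and without 5932) and 0 to 6563 in the testicle (6563 without 3208). The cause of these changes was not tested. The calf as a replicate block changed no call and gave 0 genes for the mean and 0 between tissues. Without each calf, the age difference ranged from -0.833 to 14.5 days and the difference in weight at collection from -4.17 to 14.8 kg, and both turned sign without 3213 (-0.833 days and -4.17 kg). In the comparison that named it, each of the 4 named genes kept its direction under the alternatives run there, and number series was not run on the mean over tissues. In the adrenal ENSBTAG00000024272 turned to -0.67 with number series and ENSBTAG00000012887 to 0.24 in IVP calves alone. Depth limits genes near 3 counts, and 4 calves per side limit the rest.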
